A study of Mus musculus with 4 samples.

Results

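Isolated accessible regions are stretches of open chromatin with no other accessible region nearby. They were taken from a list of 91266 accessible regions of natural killer (NK) cells, which were grown from mouse spleen and profiled by ATAC-seq, an assay that marks DNA a transposase can reach. A region counted as isolated when the gap to the region before it and the gap to the region after it both exceeded 50 kb, measured from edge to edge on the same chromosome. The first and last region of each of the 21 chromosomes, 42 in all, could not be judged on both sides and stayed among the other regions, although 12 of them had their single gap above the limit. This gave 2002 isolated regions, or 2.19% of all regions (95% Wilson interval 2.10 to 2.29%), to be set against 89264 other regions. The rule reads start and end positions, not list membership or genes, and widths enter it only through the edges of the gaps. With gaps from centre to centre, 2029 regions were isolated.

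The study compared NK cells from wild-type (WT) C57BL/6 mice cultured for 72 hours with a high dose (HD) or a low dose (LD) of interleukin-15 (IL-15), with 2 replicates per dose and about 75000 cells per replicate. The labels call the replicates biological without naming animals, and give neither the concentrations nor the age of the mice. The deposited tables hold positions, widths and, as 2 separate lists, the regions that the authors called up and down, with no value for any sample. Depth and the spread between replicates are therefore unknown. Which dose served as the reference is not stated, so both lists keep their deposited names. All intervals below cover counting error only. Regions are not replicates of a culture, and no test was run across them: the differences below are descriptions of the lists.

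IL-15 binds a receptor made of the IL-2 receptor beta chain and the common gamma chain, and signals through JAK kinases and STAT5 to keep NK cells alive and to arm them. Most regulatory DNA of a lymphocyte lies in clusters of accessible sites around the genes that the cell uses. A lone accessible site can be the promoter of a solitary gene, an element in a gene desert, or a site inside a very long gene. Insulators, promoters and remote enhancers are all accessible, and a list of positions does not tell them apart.

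Promoters among the isolated regions are shown first, because they are where an accessible region can be tied to a gene start and its sequence. Of the 2002 isolated regions, 211 (10.5%, 9.27 to 12%) overlapped a RefSeq promoter window by at least 1 bp. A window runs from 250 bases before to 50 bases after an annotated gene start, and 17492 of the 21900 protein-coding genes had one. Of the 211, 7 were in one of the authors' lists, 6 up and 1 down, or 3.32% (1.62 to 6.69%), beside 5.61% of all regions and 1.41% (1.20 to 1.65%) of the other regions at promoter windows. For the 6 of these 7 that lie farthest from their neighbours, the 250 bases before the gene start are printed 5′ to 3′ on the gene's strand, from RefSeq on assembly GRCm38.p6, with each CG dinucleotide in capitals.

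Gm6634, chr3:70807292-70807541, strand -: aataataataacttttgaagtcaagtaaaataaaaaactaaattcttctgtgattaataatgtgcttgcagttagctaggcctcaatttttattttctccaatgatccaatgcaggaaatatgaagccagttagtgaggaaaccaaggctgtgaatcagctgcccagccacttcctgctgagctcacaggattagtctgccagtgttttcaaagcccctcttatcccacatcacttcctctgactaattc
Gm36696, chr7:72110478-72110727, strand +: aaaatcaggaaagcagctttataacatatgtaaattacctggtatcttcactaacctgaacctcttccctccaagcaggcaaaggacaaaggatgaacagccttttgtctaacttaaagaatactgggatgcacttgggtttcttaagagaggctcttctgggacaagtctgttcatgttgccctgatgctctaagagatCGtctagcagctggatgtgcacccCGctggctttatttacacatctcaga
Ranbp17, chr11:33513754-33514003, strand -: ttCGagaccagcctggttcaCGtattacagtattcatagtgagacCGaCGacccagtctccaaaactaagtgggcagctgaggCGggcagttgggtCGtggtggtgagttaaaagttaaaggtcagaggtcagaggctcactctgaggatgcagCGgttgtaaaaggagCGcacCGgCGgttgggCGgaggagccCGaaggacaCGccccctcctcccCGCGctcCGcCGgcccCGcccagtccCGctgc
C1ql3, chr2:13010865-13011114, strand -: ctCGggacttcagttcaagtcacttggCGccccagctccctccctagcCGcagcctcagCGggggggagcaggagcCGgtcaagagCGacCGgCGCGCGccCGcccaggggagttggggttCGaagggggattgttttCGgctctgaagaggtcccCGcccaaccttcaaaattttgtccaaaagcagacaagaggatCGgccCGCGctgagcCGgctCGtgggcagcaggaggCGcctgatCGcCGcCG
Ptgs2, chr1:150099781-150100030, strand +: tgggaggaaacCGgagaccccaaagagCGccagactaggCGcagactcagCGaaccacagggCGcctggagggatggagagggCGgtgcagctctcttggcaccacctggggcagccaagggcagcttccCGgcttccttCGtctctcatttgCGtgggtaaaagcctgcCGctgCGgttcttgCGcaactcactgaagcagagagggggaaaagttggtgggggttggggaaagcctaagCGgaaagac
Gm2694, chr8:87472866-87473115, strand +: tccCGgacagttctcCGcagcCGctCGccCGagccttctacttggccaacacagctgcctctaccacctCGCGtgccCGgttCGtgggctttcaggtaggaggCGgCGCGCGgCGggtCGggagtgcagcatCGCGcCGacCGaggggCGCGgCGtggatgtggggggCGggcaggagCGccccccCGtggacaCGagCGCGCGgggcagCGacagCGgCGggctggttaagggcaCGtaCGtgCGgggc

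The 6 sequences span a wide range of CG content. The window of the long non-coding RNA Gm6634, at the most isolated of these regions, held 0 CG dinucleotides and 38.8% G or C. The window of Gm36696, another long non-coding RNA, held 2 and 43.6%. Those of Ranbp17, which encodes a nuclear transport receptor, and of C1ql3, which encodes a secreted C1q-like protein of synapses, held 19 and 23. The window of Ptgs2, the gene of the inducible cyclooxygenase COX-2, held 13, and that of Gm2694, a non-coding RNA at the cerebellin gene Cbln1, held 35 with 73.6% G or C. Over all 262 windows at isolated regions the median was 13 CG dinucleotides (interquartile range 7 to 21), against 16 (9 to 24) in the 13404 windows at other regions and 3 (1 to 5) in the 19185 windows that no region touched.

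Short motifs, 9 in all, were searched on both strands of the 250 bases, as descriptions of the letters present. A GGGCGG box of the SP1 type was found in 53.1% of windows at isolated regions, 58.9% of windows at other regions and 32.7% of all windows, and in 4 of the 6 printed sequences (Ranbp17, C1ql3, Ptgs2 and Gm2694). The RUNX-type motif TGTGGTT was in 2.67%, 3.65% and 4.40% of the same sets, and in the Ptgs2 sequence. The STAT-type motif TTCNNNGAA was in 4.96%, 5.54% and 7.02%, and in none of the 6. The AP-1-type motif TGANTCA was in 4.20%, 4.57% and 6.75%, and in the sequence of Gm6634. CCAAT was in 39.7%, 34.2% and 33.8%, and in Gm6634, and TATAAA in 8.78%, 5.95% and 12.4%, and in Gm36696. The ETS-type CCGGAAG was in 14.5%, 13.5% and 6.91%, and the NF-kB-type GGGNNTTCC in 7.63%, 6.27% and 4.98%. The CRE-type TGACGTCA was in 1.15%, 2.72% and 1.55%. GGGCGG and the CG dinucleotides share letters, so those counts are not separate features.

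The isolated regions were narrow. Their median width was 284 bp (interquartile range 216 to 476 bp, range 150 to 2004 bp), while the median of other regions was 403 bp (254 to 657 bp), a difference of -119 bp. Of the isolated regions, 18.3% (16.7 to 20.1%) were under 200 bp wide, against 10.4% (10.2 to 10.6%) of other regions. At 1000 bp or more were 4.50% (3.67 to 5.49%) of the isolated and 9.31% (9.12 to 9.50%) of the other regions. The isolated regions were narrower both at promoters and elsewhere: the 211 at a promoter window had a median width of 778 bp, against 930 bp for other regions there, and the remaining 1791 had one of 266 bp, against 365 bp. Of the 90 isolated regions of 1000 bp or more, 64 (71.1%) overlapped a promoter window.

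Most of the listed isolated regions were up. In the authors' deposited up list were 108 isolated regions, or 5.39% (4.49 to 6.47%), beside 4.21% of all regions and 4.19% (4.06 to 4.32%) of other regions. In the down list were 18, or 0.899% (0.569 to 1.42%), beside 1.40% of all regions and 1.41% (1.33 to 1.49%) of other regions. Together 126 isolated regions were listed, or 6.29% (5.31 to 7.44%), beside 5.61% of all regions. Up regions made up 85.7% (78.5 to 90.8%) of the listed isolated regions and 74.8% (73.6 to 76.0%) of the other listed regions. That difference of 10.9 points turned to -0.0984 with a gap limit of 100 kb and to -8.46 with one of 200 kb. The latter rested on 10 up and 5 down regions. The intervals for the up list and for the balance of the lists did not overlap between isolated and other regions, and those for the down list did.

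These shares differed by width, and few of the narrowest regions were in either list. No isolated region of up to 250 bp was in the up list (0 of 827, which allows a share of up to 0.363%, taken as 3 counts of the total), and 1 was in the down list (0.121%). Of other regions this narrow, 0.602% (0.507 to 0.714%) were up and 0.375% (0.302 to 0.466%) down. From over 350 up to 700 bp, 73 of 518 isolated regions were up, or 14.1% (11.4 to 17.4%), against 7.72% (7.43 to 8.02%) of other regions of that width. In the class from 481 to 590 bp the share was 19.3% (13.7 to 26.5%), against 8.62% (8.06 to 9.22%). Down regions did not show this: 10 of 518 isolated regions of these widths were down, or 1.93% (1.05 to 3.52%), against 2.16% (2.01 to 2.33%). When other regions were weighted to the widths of the isolated ones, their up share became 3.48% and their down share 1.12%. At those shares the 2002 isolated regions would hold 69.7 up and 22.5 down regions, where 108 and 18 were counted. Weighting by the 4 classes of boundary distance alone gave 4.70% and 1.81%, or 94.0 up and 36.3 down regions, and that up share lay inside the interval of the isolated regions. Listed isolated regions had widths like those of other listed regions, with medians of 465 bp in the up list and 556 bp in the down list, against 453 and 537 bp.

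**Figure D1:**
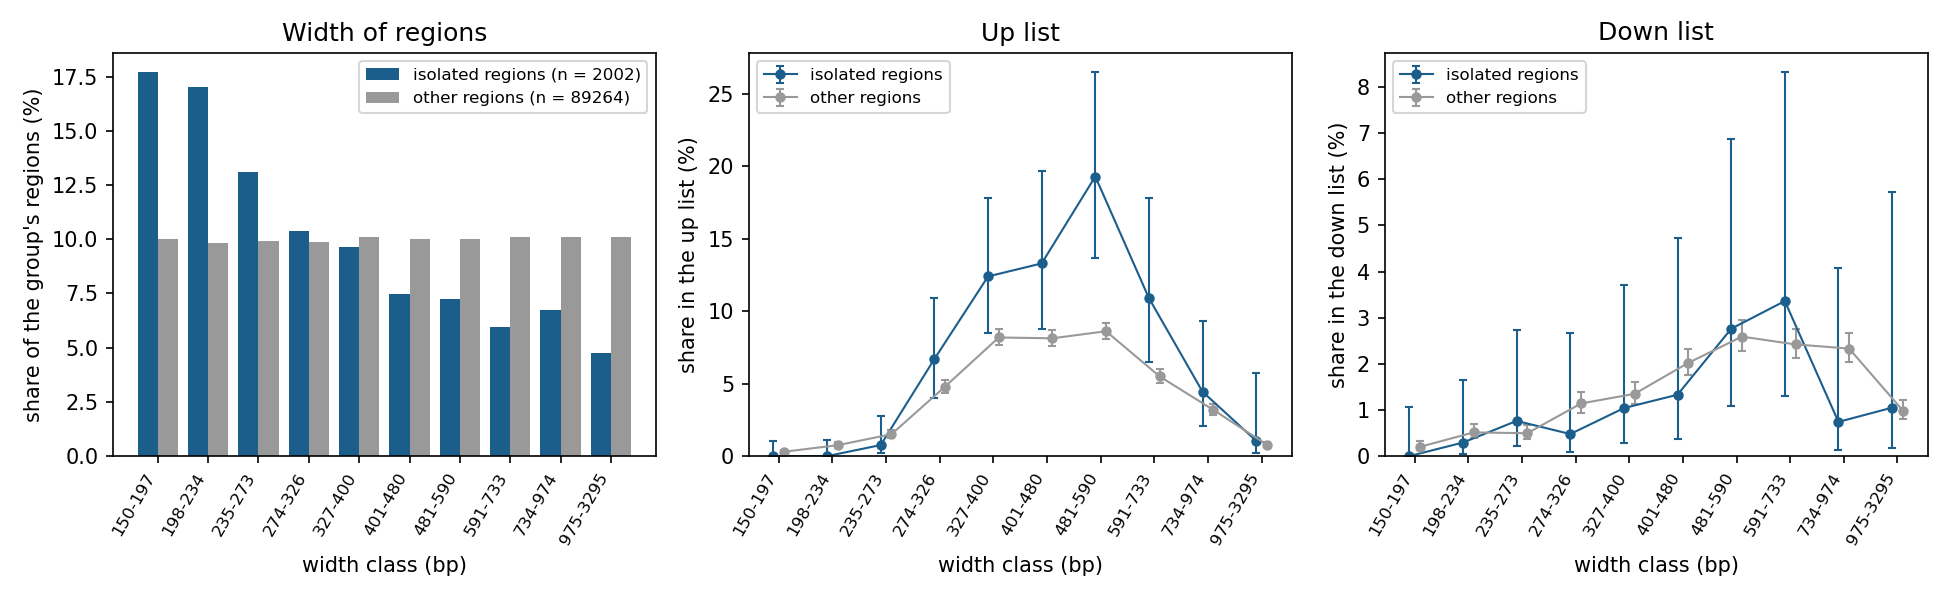
Share of isolated (blue) and other (grey) regions in each of 10 width classes in bp (left), and the percentage of each class in the up list (middle) and the down list (right), with 95% Wilson intervals as bars. Isolated regions crowd into the narrow classes, yet in each class from 327 to 733 bp a larger share of them is in the up list, reaching 19.3% against 8.62% at 481 to 590 bp.

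The up share was highest at moderate isolation. Regions were grouped by the smaller of their 2 gaps. The up share was 3.34% (3.12 to 3.58%) with a gap under 1 kb, 4.97% (4.43 to 5.58%) from 20 to 50 kb and 6.17% (4.97 to 7.63%) from 50 to 100 kb. It was 4.63% (3.02 to 7.04%) from 100 to 200 kb and 3.28% (1.79 to 5.93%) over 200 kb. Of the 108 up regions among the isolated ones, 78 had a smaller gap of 50 to 100 kb, as did 1265 of all 2002 isolated regions. The down share went from 1.77% (1.61 to 1.95%) under 1 kb to 0.632% (0.321 to 1.24%) at 50 to 100 kb, and was 1.64% (0.702 to 3.78%) over 200 kb, where it rested on 5 of 305 regions. It was already 0.997% (0.884 to 1.12%) at 5 to 20 kb and 0.934% (0.713 to 1.22%) at 20 to 50 kb, close to the 0.899% of the isolated regions. Up regions were 65.4% of listed regions with a gap under 1 kb, 74.0% at 1 to 5 kb, 81.9% at 5 to 20 kb, 84.2% at 20 to 50 kb, 90.7% at 50 to 100 kb, 80.0% at 100 to 200 kb and 66.7% over 200 kb. The lean of listed regions to the up list was thus not limited to gaps over 50 kb. With a limit of 100 kb in place of 50 kb, 4.07% of the 737 isolated regions were up, a difference of -0.144 percentage points from the remaining regions, where it was 1.21 at 50 kb. It was -0.937 at 200 kb, on 10 up regions, so the sign turned with the limit. The interval over 200 kb, 1.79 to 5.93%, also held the 4.21% of all regions. Against other regions weighted to the same widths, the difference was 1.91 points at 50 kb, 0.673 at 100 kb and -0.146 at 200 kb, so that it turned at 200 kb only. The down difference weighted in this way was -0.224, 0.269 and 0.535 points.

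**Figure D2:**
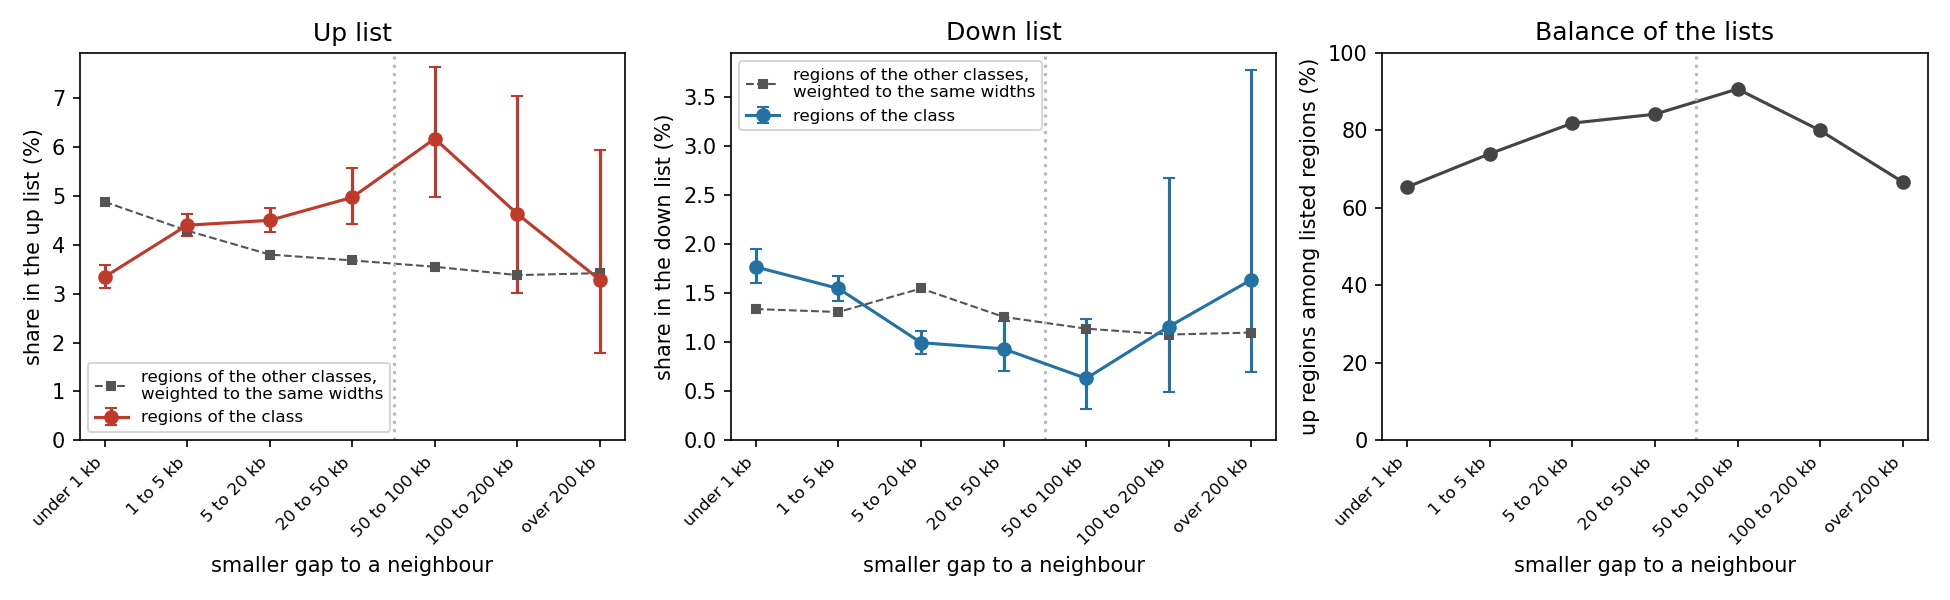
Percentage of regions in the up list (left, red) and the down list (middle, blue) by the smaller gap to a neighbouring region, with 95% Wilson intervals, beside the percentage in the other gap classes weighted to the same widths (grey, dashed), and up regions as a percentage of listed regions (right). The dotted line marks 50 kb; the up share peaks at 6.17% between 50 and 100 kb and the curve comes down beyond it.

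The 2 isolated regions closest to it were 183 bp wide near Cavin4, in neither list, and 411 bp wide near Pard3, in the up list. The 2 regions just outside it were 223 bp wide near Gopc and 392 bp wide inside Cntnap2, both in neither list.

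The isolated regions lay in gene-poor surroundings. Their median distance to the nearest boundary of a protein-coding gene, meaning either end of its span, was 69.4 kb, against 12.5 kb for other regions. The boundary can be far from a region deep inside a long gene. To the gene span itself, with 0 for regions inside a gene, the medians were 9.26 kb and 0 kb. A median of 5 protein-coding genes lay within 500 kb of an isolated region and of 11 for other regions, and 4.75% (3.90 to 5.77%) had none, against 0.432% (0.391 to 0.478%). Inside a protein-coding gene were 43.9% (41.7 to 46.0%) of isolated and 61.4% (61.1 to 61.8%) of other regions. The genes that hosted isolated regions were long, with a median span of 209 kb against 67.9 kb. Host genes spanning over 500 kb held 192 of the 878 isolated regions inside genes, or 21.9% (19.3 to 24.7%), against 3.70% (3.55 to 3.86%) of other regions inside genes. Gaps of over 50 kb, which the choice required, fit more easily into long genes and deserts, so these differences are not independent of it.

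Gene ends held fewer of them. At most 1000 bp from such a boundary were 227 isolated regions, or 11.3% (10.0 to 12.8%), and 17.2% (17.0 to 17.5%) of other regions. Where the strand of the nearest gene was known, 173 of 183 such isolated regions (94.5%) were nearer to the end where the gene starts, and 82.8% of the 12100 such other regions were. More than 100 kb from any boundary lay 787 isolated regions, or 39.3% (37.2 to 41.5%), against 9.03% (8.84 to 9.22%) of other regions. Over 100 kb outside any protein-coding gene and off promoter windows lay 537, or 26.8%, against 5.52%.

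List membership also followed position. At promoter windows, 6 of 211 isolated regions, or 2.84% (1.31 to 6.06%), and 1.05% (0.874 to 1.27%) of other regions were up. The isolated regions there were also narrower, with a median width of 778 bp against 930 bp, and the part of width was not tested. Inside genes away from these windows the up shares were 4.89% (3.52 to 6.75%) and 3.96% (3.79 to 4.15%). Outside genes and within 100 kb of one they were 6.27% (4.54 to 8.60%) and 5.44% (5.18 to 5.71%), and farther out 6.15% (4.41 to 8.50%) and 5.59% (4.98 to 6.26%). In the last 3 of these places the intervals overlapped. Down regions were most frequent far from genes in both groups, at 1.86% (1.01 to 3.39%) of isolated and 2.80% (2.38 to 3.30%) of other regions more than 100 kb outside a gene. Weighting other regions to the widths and the 4 classes of boundary distance of the isolated ones gave an up share of 3.66% and a down share of 1.33%.

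**Figure D3:**
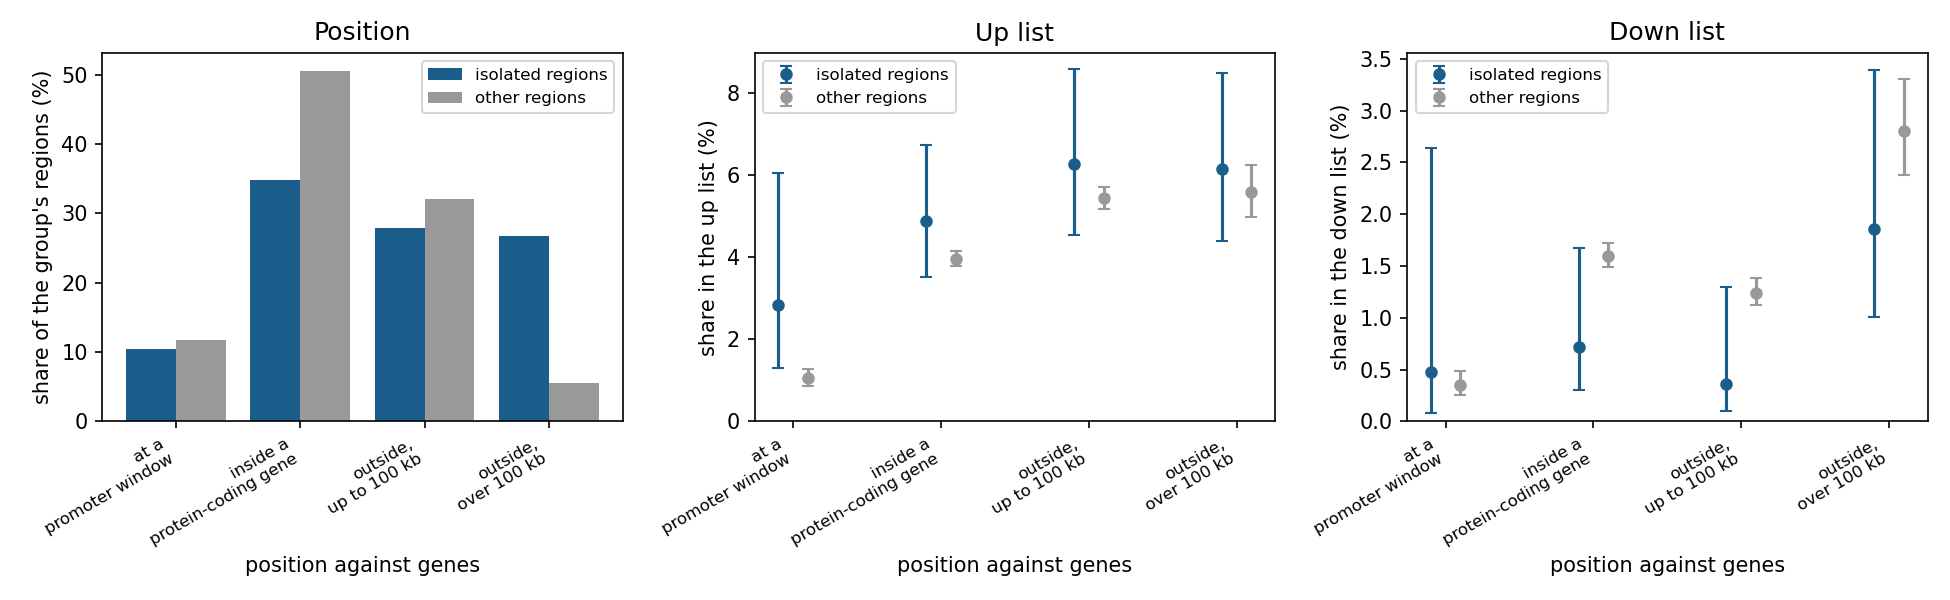
Share of isolated (blue) and other (grey) regions in 4 positions against genes (left), and the percentage of each in the up list (middle) and the down list (right), with 95% Wilson intervals. Isolated regions are more often over 100 kb outside a gene (26.8% against 5.52%), and the up share lies above that of other regions in each position. The intervals overlap in all but the promoter windows, where 6 of 211 isolated regions are up.

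The most isolated regions of all were in neither list. The 3 largest smaller gaps were on chromosome Y, the widest of them 19474 kb around a region of 297 bp at 71244691 to 71244987. The others of the 5 were a region of 201 bp on chromosome 3 at 45679708 to 45679908, 245 kb from Pcdh10, a protocadherin gene of nerve cells, and a region of 1181 bp on chromosome 1 at 111864014 to 111865194. The latter covered the promoter window of Dsel, which encodes a dermatan sulfate epimerase-like protein, with no region for 3822 kb before it and 6434 kb after it. Each of Pcdh10 and Dsel had no other region assigned to it.

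The 5 most isolated up regions lay on 5 chromosomes, and 1 of them lay inside a protein-coding gene. The first, of 579 bp on chromosome 12 at 63103690 to 63104268, was 1246 kb from Lrfn5, a synaptic adhesion gene, with 1109 kb free on its nearer side. The second, of 362 bp on chromosome 3 at 70807154 to 70807515, was the one at the start of Gm6634, and its nearest protein-coding gene was the inner-ear gene Otol1, 778 kb away. The third, of 319 bp on chromosome 9 at 74141930 to 74142248, lay inside Wdr72, a gene known from tooth enamel, and was the only region of that gene. The remaining ones were a region of 626 bp on chromosome 8, 7.53 kb from the HMG-box gene Tox3, and one of 286 bp on chromosome 19, 404 kb from Gpam, which encodes a glycerol-3-phosphate acyltransferase.

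The widest up regions were of different kinds. At 1154 bp, the widest covered the start of Ranbp17 on chromosome 11 at 33512781 to 33513934. The next, of 952 bp on chromosome 18 at 78276504 to 78277455, lay inside the urea transporter gene Slc14a2, 130 kb from its nearer end. The third, of 823 bp on chromosome 2 at 56837268 to 56838090, lay 269 kb outside Nr4a2, which encodes an orphan nuclear receptor induced by activation in lymphocytes, with gaps of 416 and 262 kb. Among up regions at gene starts, that of Ptgs2 was 494 bp wide on chromosome 1 at 150099807 to 150100300, with gaps of 138 and 64.5 kb. The nearest listed region, 64.5 kb away, was also up. At Cbln1, the only region of the gene was the up region of 714 bp on chromosome 8 at 87472476 to 87473189.

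The 18 down regions were spread over 9 chromosomes, and 12 of them (66.7%) lay more than 100 kb from any gene boundary. Of the 108 up regions 43 did (39.8%), and of all isolated regions 39.3% did. With 18 down regions their share is uncertain. The most isolated down region was a narrow one of 203 bp on chromosome 9 at 11579129 to 11579331, 674 kb from the contactin gene Cntn5. A region of 439 bp on chromosome 4 at 28176730 to 28177168 lay 636 kb from the ephrin receptor gene Epha7, and the nearest listed region was 3215 kb away. The others of the 5 were 380 bp near Gm51591, 645 bp near Aldoart1, a testis aldolase gene, and 323 bp at 870 kb from Trps1, which encodes a GATA-type repressor. The widest down region, of 2004 bp on chromosome 2 at 13009989 to 13011992, covered the whole printed C1ql3 sequence and was the widest of all isolated regions. It was followed by 973 bp near Dmac1, a gene of mitochondrial complex I assembly, and 730 bp near the phospholipid scramblase-like gene Plscr5.

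Of the 90 isolated regions of 1000 bp or more, 2 were listed, the ones at Ranbp17 and C1ql3, or 2.22% (0.612 to 7.74%), against 1.62% (1.37 to 1.92%) of other regions as wide. The 3 widest isolated regions in neither list measured 1926 bp at the start of Creb5, a CREB-family factor gene, 1805 bp at the start of Cop1, a ubiquitin ligase gene, and 1635 bp at the non-coding Gm36223, 52.0 kb from Mn1.

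**Figure D4:**
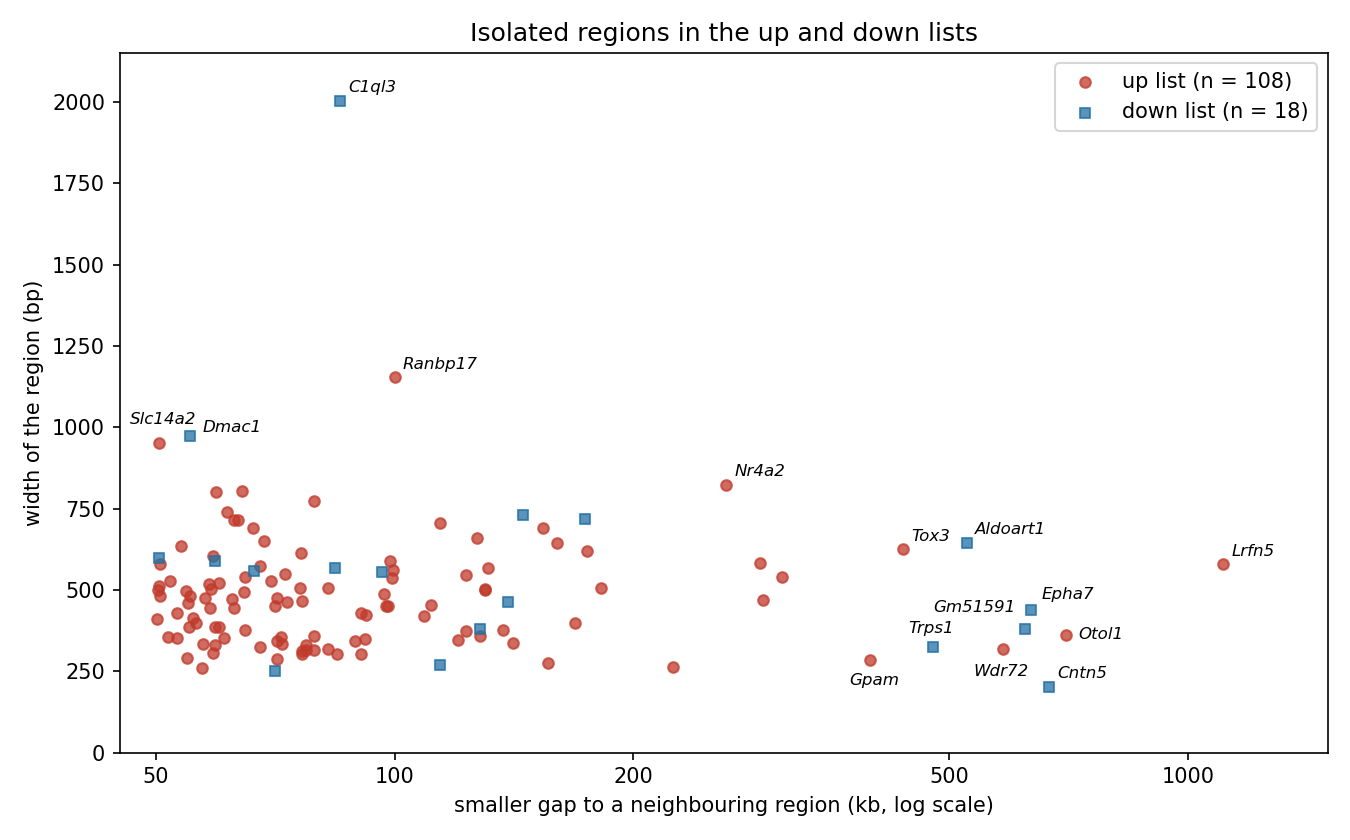
Width in bp against the smaller gap in kb (log scale) for the 108 isolated regions in the up list (red circles) and the 18 in the down list (blue squares), with the nearest protein-coding gene of the extreme ones. Most up regions sit under 700 bp and between 50 and 100 kb, where 1265 of all 2002 isolated regions lie too. C1ql3 (2004 bp, down) and Ranbp17 (1154 bp, up) stand apart in width, and Lrfn5 (1109 kb) in isolation.

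No listed region can lie within 50 kb of an isolated one, by the rule. The nearest listed region lay a median of 213 kb from an up region and 461 kb from a down region. For other listed regions whose nearest listed region was over 50 kb away, the medians were 157 and 166 kb. It was in the same list for 94 of 108 up regions (87.0%, 79.4 to 92.1%) and for 9 of 18 down regions (50%, 29.0 to 71.0%). Among the 2015 other up regions whose nearest listed region was also over 50 kb away, it was up for 79.1% (77.2 to 80.8%), and among 641 such down regions it was down for 36.5% (32.9 to 40.3%). Of all listed regions, 75.1% were up.

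The isolated regions were shared among many genes. In all, 1536 protein-coding genes were nearest to at least 1 of them, and 1189 of these to exactly 1. For 470 genes the isolated region was the only accessible region assigned to the gene, and 13 of these regions were up (2.77%, 1.62 to 4.67%) and 4 down (0.851%, 0.331 to 2.17%), beside 4.21% and 1.40% of all regions. Of the 3193 other regions that were the only one of their gene, 2.04% (1.60 to 2.59%) were up and 0.188% (0.0861 to 0.409%) down. The gene with the most was Auts2, a neurodevelopmental gene spanning 1106 kb, with 9 of its 17 regions isolated. Pard3b, a cell polarity gene, had 7 of 19. Asic2 (an acid-sensing channel gene), Cdc73 (a gene of the PAF1 transcription complex), Dlg2 and Negr1 (both of synapses) had 5 each. The 5 of Cdc73 all lay outside the gene, up to 861 kb away, while those of Asic2 and Dlg2 lay inside.

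Listed isolated regions rarely shared a gene. Only Auts2, Fgf9 (a fibroblast growth factor gene) and Kcnj16 (an inwardly rectifying potassium channel gene) had 2 each, all up, and the other 120 genes had 1. The 2 of Auts2, of 467 and 303 bp, were neighbours 76.4 kb apart within the gene.

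Listed counts in the gene lists stand beside 4.21% up and 1.40% down over all regions, and each rests on 5 regions or fewer. Of 37 NK effector and receptor genes, 0 were nearest to an isolated region, whereas 334 other regions (0.374%) were assigned to them. They include the granzymes, perforin, interferon gamma and the activating and Ly49 receptors. A count of 0 of 2002 regions allows a share of up to 0.150%, again as 3 counts of the total. A region with a neighbour within 50 kb cannot be isolated, so this 0 is not independent of the rule. Of 22 genes of the IL-15 receptor, JAK-STAT signalling and its feedback, 1 had any, Myc, with 2 unlisted regions 85.2 and 214 kb away. Among 38 genes of checkpoint, homing and lymphoid growth receptors, Itga1 and Pdcd1 had 1 each, or 0.0999% (0.0274 to 0.364%) together, against 0.563% of other regions. The region near Pdcd1, which encodes the inhibitory receptor PD-1, was up, 387 bp wide and 157 kb from the gene. Of 40 lymphoid transcription factors, 9 had 19 isolated regions together, or 0.949% (0.608 to 1.48%), against 1.34% of other regions, and 16 of the 19 lay outside the genes. The 2 that were up lay 269 kb from Nr4a2 and 991 kb from Gata3, a factor of T helper and innate lymphoid cells. Zeb2, a factor of NK maturation, had 4 of its 58 regions isolated, all outside the gene and unlisted.

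Large neuronal adhesion and synapse genes took 67 isolated regions, or 3.35% (2.64 to 4.23%), against 0.333% of other regions, over 31 of 58 genes. Of the 67, 39 lay inside the gene. In all 5 were up: 2 inside Auts2, 1 inside Cntn1, 1 at 1246 kb from Lrfn5 and 1 at 480 kb from Pcdh9. The 1 that was down lay 674 kb from Cntn5. Axon guidance genes took 25, or 1.25% (0.847 to 1.84%), against 0.270%, with 0 up and 2 down (Epha7 and Sema3d). Glutamate and GABA receptor genes took 12, or 0.599% (0.343 to 1.04%), against 0.0527%, with 2 up (Grik3 and Gria3). Cadherins and protocadherins took 18, with 1 up, the same region nearest to Pcdh9, which is also in the list of neuronal genes. Potassium channel genes took 21, or 1.05% (0.687 to 1.60%), against 0.527%, with 4 up (2 nearest to Kcnj16 and 1 each to Kcnj2 and Kcnh5). Those nearest to Kcnj16 and Kcnj2 all lay in 1 stretch of chromosome 11, from 110781727 to 111227669.

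Olfactory receptor genes, of which the reference held 1107, were nearest to 27 isolated regions, or 1.35% (0.929 to 1.96%), against 0.196% of other regions, and 26 of the 27 lay outside the genes. A single one was up, 262 bp wide and 7.67 kb from Olfr572. Vomeronasal receptor genes had 9, none listed. Zinc finger genes named Zfp had 24, or 1.20%, against 1.70% of other regions, and 11 of those 24 were at a coding promoter window. Host gene length and the number of genes nearby, given above, also differed between isolated and other regions, and their part in these shares was not tested.

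**Figure D5:**
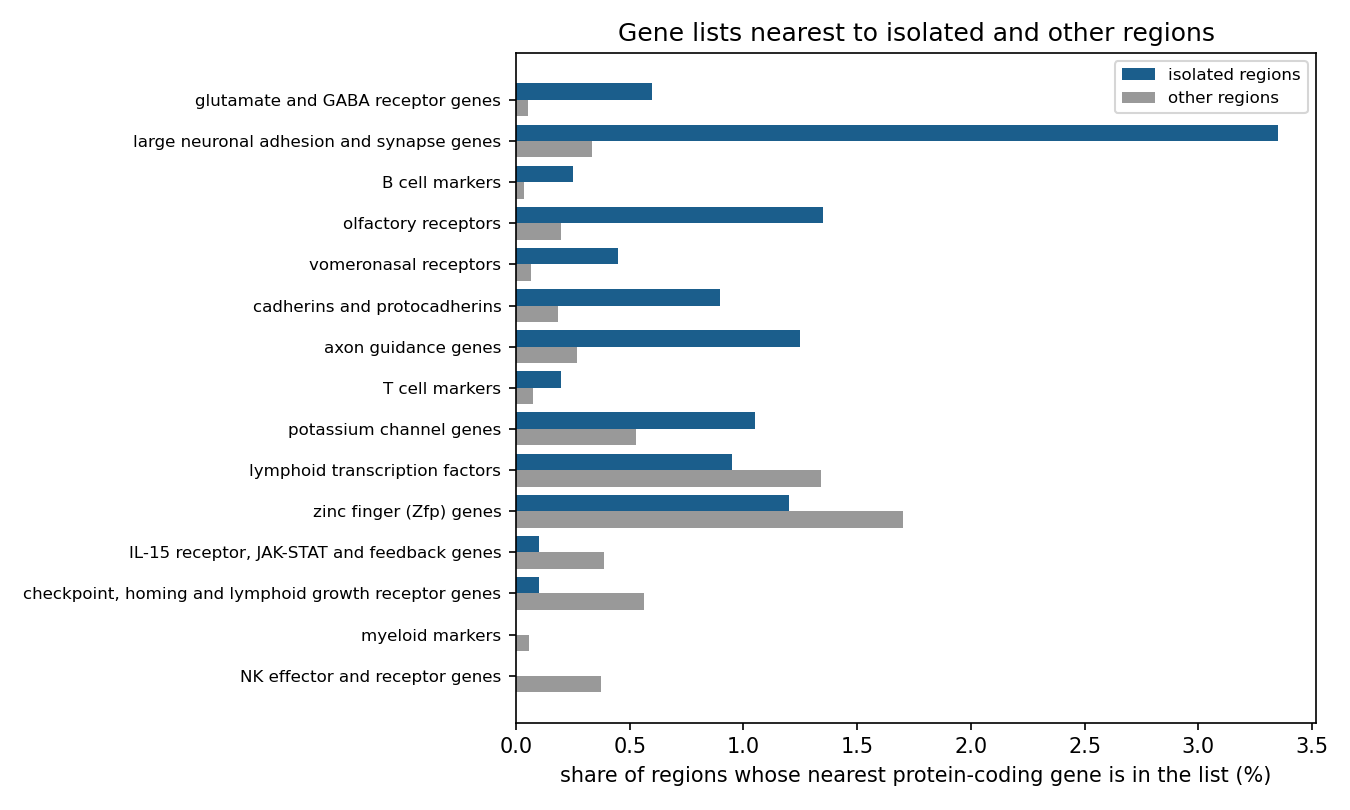
Percentage of isolated (blue) and other (grey) regions whose nearest protein-coding gene belongs to each gene list, ordered by the share of the list's regions that are isolated. Large neuronal genes take 3.35% of isolated and 0.333% of other regions. NK effector and receptor genes take 0 of the isolated ones, a count that is not independent of the rule.

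Markers of the labelled cell type and of others were read in the full list of regions. All 11 NK markers had a region inside the gene or within 1000 bp of it, as did 6 of 7 T cell and 3 of 6 myeloid markers. Those without were Cd8a and the myeloid genes Lyz2, Adgre1 and Mpo. T cell markers in the longer list of 12 were nearest to 4 isolated regions, or 0.2% (0.0777 to 0.513%), against 0.0739% of other regions. Of these, 3 were nearest to Bcl11b, which also count among the lymphoid transcription factors, and 1 to Themis. B cell markers were nearest to 5 (3 nearest to Ebf1 and 1 each to Cr2 and Pax5), or 0.250% (0.107 to 0.583%), against 0.0358%. Myeloid markers in the list of 12 were nearest to 0, against 0.0560% of other regions. None of these isolated regions was in either of the authors' lists.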

How the data were processed

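ATAC-seq was performed by the authors on 4 samples. The submitters' processing notes name BWA, ArchR, MACS2, HOMER 4.11.1 and the build mm10, which is assembly GRCm38, without saying which step each did. Whether samples were pooled for calling regions, and the differential test, its threshold and its reference dose, are not given in the sources used here. The 3 tables analysed, as deposited by the authors, hold positions and a width in bp, with 0 columns of values per sample. The planned edgeR comparison of the doses could not be made.

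Starts of the full list are 0-based and were raised by 1. Every up or down region is identical to a region of the full list. Nearest genes are protein-coding genes of RefSeq GRCm38.p6, by distance to the span. Regions were weighted over 10 width classes and 4 classes of boundary distance (limits 1, 10 and 100 kb). Intervals are Wilson intervals (95%), and the limit for a count of 0 is 3 counts of the total. Python 3.11.15, pandas 2.3.3 and SciPy 1.17.1 were used, and the scripts were tested on simulated data. The isolated regions and the gene lists were chosen with earlier results of these data known. Named regions are the most isolated 5 and widest 3 of each list, listed regions nearest to a gene of a fixed list, the 3 widest unlisted regions, genes with the most isolated regions and the 2 regions on either side of the limit. Ptgs2, Cbln1, Zeb2 and the members of gene lists in neither list were named after their values were seen. Width bands, chromosome Y and combined weighting were also chosen after the data were seen. The check of B cell markers in the full list of regions is not reported here.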

Additional observations from a re-analysis of the deposited data

How the results depend on the processing

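No paired analysis was possible because only positions and widths were available, with no value per sample. For the same reason the comparison of the doses, its alternatives (another normalization, no count filter, each replicate left out) and stricter thresholds on the authors' calls were not run. For 15 results, 147 alternatives were run, 16 of them chosen after seeing the data: 98 stayed within the interval of the reported value or, for the number of regions, within 1.5 times of it, 41 moved and 8 changed sign. The cause was not tested for any of them, except where fewer or other regions enter by construction.

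The gap limit changed most. With 20, 100 and 200 kb the number of isolated regions was 7571, 737 and 305, the median width with 20 kb was 320 bp (-87.0 bp against other regions), the share inside genes 53.5%, 37.2% and 30.5% (-8.21, -24.1 and -30.7 points against other regions) and the median boundary distance 32.6, 112 and 188 kb (20.7, 99.1 and 176 kb more than other regions). The share at a gene boundary with 20 kb was 16.0% (-1.15 points). The up share with 100 and 200 kb was 4.07% and 3.28%, the latter on 10 regions. Its difference from other regions, 1.21 points at 50 kb, changed sign to -0.144 and -0.937. The up share of listed regions was 75% and 66.7%, a difference of -0.0984 and -8.46 points in place of 10.9. The down share with 200 kb was 1.64%, a difference of 0.243 in place of -0.509 points, on 5 regions. With other regions weighted to the same widths as well, added after seeing the data, the up difference was 0.673 points at 100 kb and -0.146 at 200 kb, and the down difference 0.269 and 0.535.

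Other settings moved values without turning a direction. Among regions wider than 200 bp the up share was 6.63% and the boundary share 13.1%. Measuring gaps between regions of at least 200 bp gave a median width of 335 bp. With genes of any biotype the boundary share was 16.5%, the share inside genes 53.1% and the median distance 18.5 kb (12.5 kb more than other regions), and without genes named by number the distance was 78.1 kb (65.1 kb more). Boundary distances of 3 kb and 100 bp gave 14.3% and 9.39% (-11.9 and -2.11 points). Weighting other regions by distance classes gave a down difference of -0.913 points and an up difference of 0.698 in place of 1.21. Among regions over 350 and up to 700 bp wide, chosen after seeing the data, the up share was 14.1% (6.37 points more than other regions) and the down share 1.93%. Autosomes only, centre-to-centre gaps, keeping the terminal regions and leaving out chromosome Y moved none of the results recomputed. Without depth, whether narrow isolated regions were too thinly covered to be listed cannot be judged.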

Other observations

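Isolated regions were unevenly spread over chromosomes. They made up 5.90% (4.97 to 7%) of the 2100 regions on chromosome X and 23.2% (14.1 to 35.8%) of the 56 on chromosome Y, against 1.20% (0.915 to 1.58%) on chromosome 17 and 2.71% (2.19 to 3.36%) on chromosome 18. Regions of any kind were also sparser there, with 12.8 per Mb between the first and last region of X and 0.617 on Y, against 45.2 on chromosome 17. On X, 4 of 124 isolated regions were up, or 3.23%, beside 3.29% of all regions of X, and 0 were down. On Y 0 of the 13 isolated regions and 0 of all 56 regions were up. Of those 13, 1 lay at a gene start, that of Eif2s3y, which encodes a translation initiation factor subunit. It was 1148 bp wide, and each of the 13 was the only region of its nearest gene.

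Among genes whose only accessible region was isolated and up were Hbb-y, an embryonic beta-globin gene, with a region of 354 bp at 7.72 kb, Htr1a, a serotonin receptor gene, with one of 505 bp at 66.2 kb, and Adam23, with one of 304 bp inside the gene. They were singled out after their values were seen.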
